A study of Mus musculus with 19 samples.

Results

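Homologous recombination and Fanconi repair genes were followed here as 34 named genes, picked by symbol for their place in or near these pathways. They range from the nucleases that trim broken DNA ends, through the BRCA complexes and the genes that mediate strand exchange, to the Fanconi core complex. Msh6, also among the 34, takes part in mismatch recognition. All 34 were found among the 47643 symbols of the deposited expression table, and all 34 passed the expression filter (at least 1 TPM in at least 4 libraries) that left 13520 genes for testing. TPM is a transcript level scaled by gene length and to a fixed total per library, so that levels can be set side by side between genes.

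The study sequenced RNA of mouse cortex at embryonic day 14.5. Mutant embryos carried GFAP::Cre with SmoM2, in which Cre recombinase, driven by the GFAP promoter, switches on a form of Smoothened that stays active without a Hedgehog signal. Controls are called wildtype in the design text and Control in the sample labels. The 19 libraries were 4 mutant dorsal, 6 control dorsal, 4 mutant medial and 5 control medial libraries. The sample labels call the pieces dorsal or medial, while the dissection text names lateral in place of dorsal pieces. Whole dissected pieces were used, so cells in which Cre acted and cells in which it did not were measured together. Libraries of 3 control numbers read as female by Xist and Ddx3y. Sex was not in the main fit, and some calls below changed with sex as a covariate. Nothing in the labels ties each library to an embryo of its own, and p-values therefore rest on the spread among libraries, which may be technical.

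Each library summed to 1e+06 TPM, the sequencing depth is unknown and no counting error can be given. Targets of the active Smoothened followed the labels in every library: Gli1 lay between 30.7 and 42.8 TPM in mutant dorsal and 24.3 and 48.1 TPM in mutant medial libraries, against 0.327 to 1.08 TPM in control dorsal and 0.200 to 0.558 TPM in control medial libraries. Cortical progenitor and neuron markers were present in all groups, and no gene of the marker lists had a group mean of 0. Proliferation genes moved with the genotype in both regions: all 44 S-phase replication genes were higher in mutants, with a median log2 change of 0.72 dorsally and 0.63 medially. Of 45 G2/M genes, 44 were higher dorsally and 43 medially. Histone genes took 10.1% to 12.6% of TPM in mutant dorsal and 12.4% to 12.5% in mutant medial libraries, against 5.85% to 7.29% in control dorsal and 6.79% to 8.69% in control medial libraries. Neuron markers moved the other way: of 15 tested, 10 were lower dorsally and 11 medially, and their summed level was 3558 to 5256 TPM in mutant dorsal libraries, against 5564 to 6309 TPM in control dorsal libraries. Medially that sum was 2564 to 3283 TPM in mutants and 3781 to 4861 TPM in controls. Of 11 radial glia markers, 6 were higher and 3 lower dorsally and 3 and 2 medially, with sums that overlapped between the genotypes in both regions (2699 to 3006 TPM in mutant dorsal and 2670 to 3032 TPM in control dorsal, 3281 to 3722 TPM in mutant medial and 3449 to 4286 TPM in control medial libraries). Of 10 interneuron markers tested, 6 were lower medially (median -0.72) and 1 dorsally (median -0.40), and the summed level of the list was 44.6 to 76.5 TPM in mutant medial libraries, against 73.4 to 107 TPM in control medial libraries. Of 7 intermediate progenitor markers, 3 were higher and 2 lower dorsally, and 2 and 1 medially. Beside these counts, 9.93% of all tested genes were higher and 27.6% lower dorsally, and 9.44% and 30.2% medially. Cajal-Retzius markers were lower medially (4 of 4 tested) and microglia markers dorsally (4 of 6 tested). The part of these shifts in the repair results was not tested, and in bulk tissue more cells of a type and more RNA per cell cannot be told apart.

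Homologous recombination repairs broken or stalled DNA by copying an intact sister chromatid, and is therefore used after DNA has been replicated. The broken end is cut back to a single strand, which, with the help of the BRCA proteins and other factors, is paired with the matching sequence. The Fanconi pathway deals with crosslinked strands: a core complex attaches ubiquitin to FANCD2 and FANCI, which brings nucleases and then recombination to the lesion. Germline loss of several of these genes in mice disturbs dividing cells of the embryo, neural progenitors among them.

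Many of these genes are known to be transcribed as cells enter S phase, under E2F factors, so their promoters were searched for E2F-type letters. RefSeq windows of 300 bases on build GRCm38.p6, with 250 bases before and 50 after each start, were at hand for 25 of the 34 genes. The letters TTTCCCGC, TTTCGCGC, TTTGCCGC or TTTGGCGC, on either strand, stood in the windows of 7 of these 25 (28.0%), namely Chek2, Bard1, Brca2, Rad51c, Rmi1, Fancg and Msh6. Among the 9979 tested genes with a window, 4.78% held them. The letters GGCGGGAA, added after the windows had been seen and overlapping with the set above where TTTCCCGC is followed by C, stood in 6 of 25 (24.0%) against 4.82% of tested genes. These 6 were Chek1, Rad51c, Rad51ap1, Fancb, Fancm and Msh6. Because GGCGGGAA was chosen with these windows in view, its share here is no independent sign of enrichment. CCAAT was found in 17 of 25 (68.0%) against 43.5%, and TTTGAA, a part of the cell-cycle homology element, in 2 of 25 (8.0%) against 13.7%. The stretches printed below show the letters in 5 members. Atm and Atr were picked from the 14 that held neither E2F-type set, and are printed from 50 bases before to 49 after the start. Neither passed in either region, nor did Fancl, another of the 14, which is not printed. Most of the 14 did rise, and Fancg, shown with its letters, did not pass. Capitals mark the E2F-type letters.
Chek1, chr9:36726609-36726708, minus strand, letters from 42 bases after the start: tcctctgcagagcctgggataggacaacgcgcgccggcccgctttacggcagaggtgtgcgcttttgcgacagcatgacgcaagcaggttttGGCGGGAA
Rad51ap1, chr6:126939538-126939637, minus strand, letters from 11 bases after the start: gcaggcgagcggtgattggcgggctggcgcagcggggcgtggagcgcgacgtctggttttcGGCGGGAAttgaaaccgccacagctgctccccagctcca
Brca2, chr5:150522413-150522512, plus strand, letters from 168 bases before the start: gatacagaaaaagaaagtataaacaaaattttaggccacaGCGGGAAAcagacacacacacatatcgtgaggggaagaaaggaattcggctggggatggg
Fancg, chr4:43010294-43010393, minus strand, letters from 52 bases before the start: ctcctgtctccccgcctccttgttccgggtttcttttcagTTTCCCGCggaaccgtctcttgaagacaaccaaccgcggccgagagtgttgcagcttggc
Msh6, chr17:87975000-87975099, plus strand, letters from 15 bases after the start: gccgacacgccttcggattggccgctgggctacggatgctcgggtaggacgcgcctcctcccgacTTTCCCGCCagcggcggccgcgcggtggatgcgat
Atm, chr9:53536622-53536721, minus strand, no such letters: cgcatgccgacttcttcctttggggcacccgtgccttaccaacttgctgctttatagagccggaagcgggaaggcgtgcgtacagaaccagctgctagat
Atr, chr9:95857547-95857646, plus strand, no such letters: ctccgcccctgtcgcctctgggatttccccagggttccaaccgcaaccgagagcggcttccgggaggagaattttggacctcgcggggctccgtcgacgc

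Whether members with the letters had the larger median change depended on the letters. The 7 members with the first set had a median log2 change, mutant over control, of 0.38 dorsally, against 0.50 in the 18 without, and 0.39 against 0.48 medially. For GGCGGGAA the medians were 0.48 with and 0.49 without dorsally, and 0.46 with and 0.42 without medially. For CCAAT they were 0.51 with and 0.40 without dorsally, and 0.47 with and 0.39 without medially. Of the 11 members with letters of either E2F-type set, the added GGCGGGAA included, 9 passed as higher in mutants dorsally and 10 medially. Of the 14 with neither set, 11 passed in each region. Exo1, Rad54b, Rmi2 and Fancd2, each among the larger changes below, had no window to search. A match of letters is a description of the sequence and says nothing of whether a factor was bound there.

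Most of these genes were more abundant in the mutant cortex. In the dorsal cortex 27 of 34 were higher in mutants, 1 was lower and 6 did not pass an adjusted p of 0.05 (limma, Benjamini-Hochberg over all genes tested), while across all tested genes 9.93% were higher and 27.6% lower. In the medial cortex 28 were higher, 1 was lower and 5 did not pass, beside 9.44% higher and 30.2% lower among all tested genes. The 27 genes that rose dorsally all rose medially as well, and Fancm was the added gene. The median log2 change was 0.49 dorsally and 0.42 medially, with medians of -0.10 and -0.11 over all tested genes. Every mutant library lay above every control library for 22 genes dorsally, beside 7.25% of tested genes, and for 24 medially, beside 7.63%. The increases were moderate, with mean TPM between 1.15 times (Rmi1) and 1.93 times (Fanca) the control mean dorsally, and between 1.16 times (Rmi1) and 1.81 times (Rmi2) medially. With libraries rescaled by median ratios, 28 genes were higher and 0 lower in each region, while the split over all tested genes turned to 2079 higher and 1998 lower dorsally, against 1343 and 3727 as deposited, and to 2138 and 2341 medially, against 1276 and 4081. All folds below are log2 changes of TPM + 1 with the standard error from limma, a scale that understates the change of low genes.

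**Figure D1:**
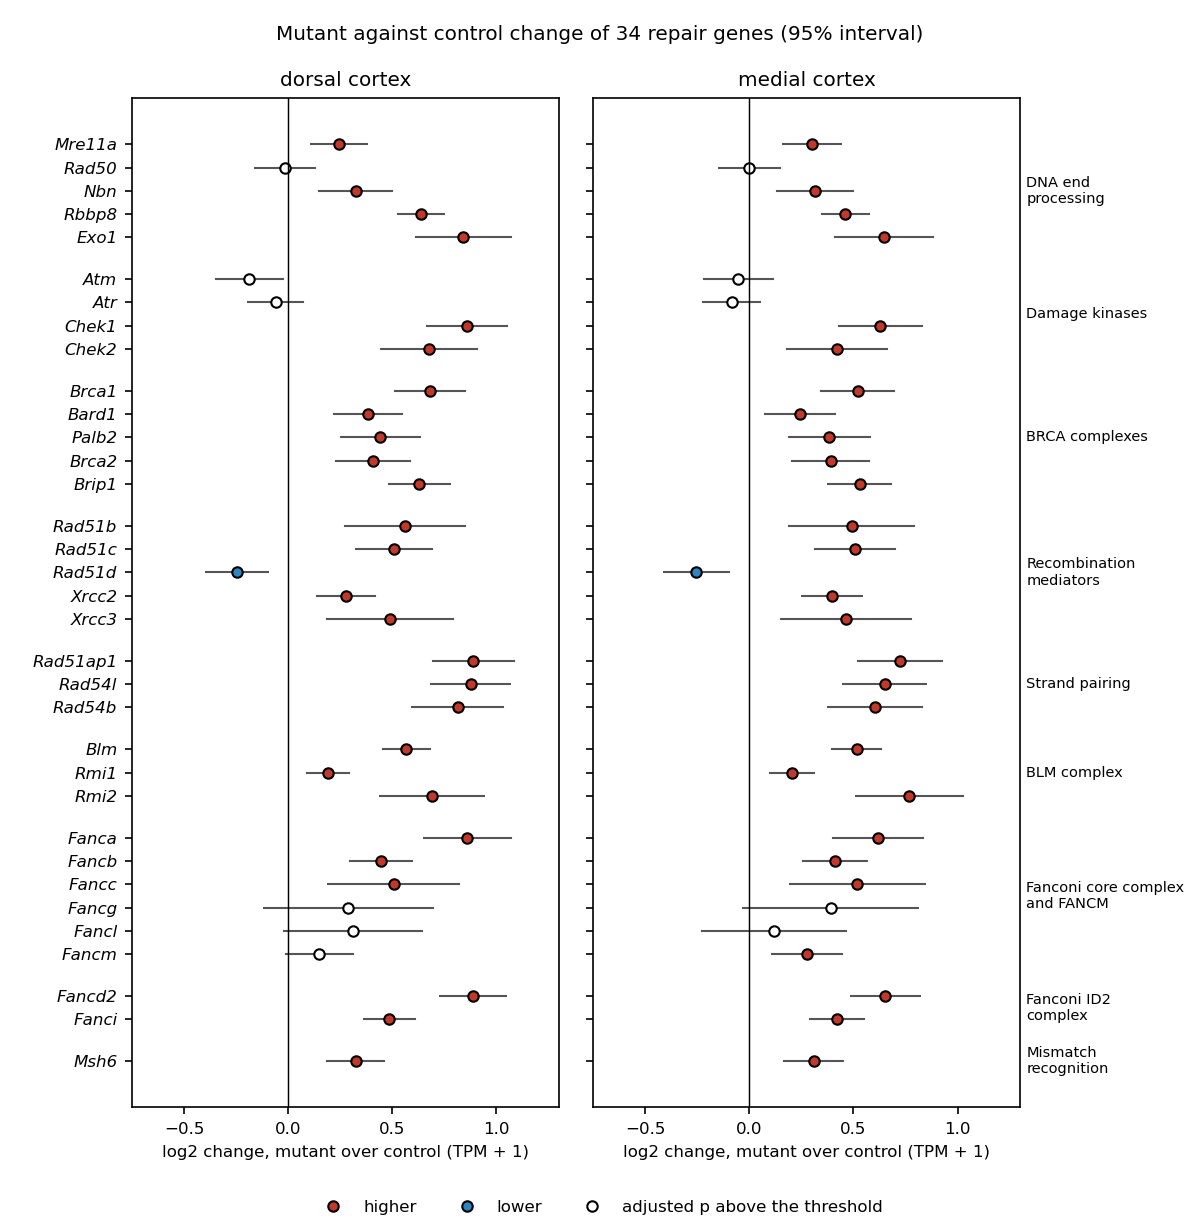
Log2 change of TPM + 1, mutant over control, for the 34 genes (rows, grouped by role) in dorsal cortex (left) and medial cortex (right); points are limma estimates and bars their 95% intervals. Red points passed an adjusted p of 0.05 as higher, blue as lower and white points did not pass. Rad51d is the blue point in both regions, and Rad50 and Atr lie near 0 among genes with changes up to 0.89. Atm lies at -0.19 dorsally, with an interval of -0.35 to -0.03, and at -0.05 medially.

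Levels differed widely between the genes. Msh6 was the most abundant, at a mean of 123 TPM in mutant dorsal, 98 TPM in control dorsal, 141 TPM in mutant medial and 113 TPM in control medial cortex. Fancc was the least abundant, at 4.29 TPM in mutant dorsal, 2.63 TPM in control dorsal, 5.28 TPM in mutant medial and 3.35 TPM in control medial cortex. The median of the 34 mean levels was 21 TPM in mutant dorsal, 12.9 TPM in control dorsal, 23.5 TPM in mutant medial and 17.1 TPM in control medial cortex.

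Of the 5 genes for processing DNA ends, 4 were higher in mutants in both regions. Exo1, the exonuclease that extends the single strand, had 23.1, 19.2, 29.6 and 21.4 TPM in the mutant dorsal libraries 1 to 4, against 11.2, 12.1 and 14.8 TPM as the lowest, median and highest control dorsal library. Medially Exo1 had 23.9, 28.7, 33.6 and 30.0 TPM in mutants and 17.9, 18.7, 16.6, 20.5 and 17.0 TPM in controls 2 to 6. The groups did not overlap in either region, and the log2 change was 0.84 ± 0.11 dorsally (limma adjusted p = 1.06e-05) and 0.65 ± 0.11 medially (adjusted p = 0.000229). Rbbp8, which encodes CtIP, the factor that starts the cutting, rose by 0.64 ± 0.05 dorsally and 0.46 ± 0.05 medially. The MRN complex, which binds the end first, was split. Mre11a, its nuclease, rose by 0.24 dorsally and 0.30 medially, and Nbn, its signalling subunit, by 0.32 in both. Rad50, the subunit that tethers the ends, was 22.3 ± 2.17 TPM in mutant dorsal and 22.5 ± 1.67 TPM in control dorsal libraries (SD, n = 4 and 6). Its log2 change was -0.02 dorsally, with a 95% interval of -0.16 to 0.13, and 0.00 medially, with an interval of -0.15 to 0.15.

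The kinases divided by their level in the cascade. Chek1 encodes CHK1, the kinase that ATR switches on at stalled replication forks. Its levels were 35.5, 32.5, 44.3 and 34 TPM in the mutant dorsal libraries, against 17.8, 19.4 and 22.0 TPM as the lowest, median and highest control dorsal library. Medially they were 37.7, 45.2, 45.9 and 44.0 TPM in mutants and 27.9, 31.9, 24.6, 29.2 and 24.6 TPM in controls. Chek1 thus separated the genotypes without overlap in both regions, with log2 changes of 0.86 ± 0.09 dorsally (limma adjusted p = 1.21e-06) and 0.63 ± 0.09 medially (adjusted p = 6.61e-05). Chek2, which encodes the corresponding kinase downstream of ATM, rose by 0.68 ± 0.11 dorsally and 0.42 ± 0.11 medially.

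The apical kinases did not rise. Atm encodes the kinase that responds to broken ends, and its levels were 35.9, 29.8, 34.4 and 31.1 TPM in mutant dorsal libraries, against 34, 37.1 and 42.0 TPM as the lowest, median and highest control dorsal library. Medially Atm had 39.6, 37.7, 42.8 and 38.8 TPM in mutants and 40.9, 35.7, 39.1, 46.9 and 44.1 TPM in controls. The groups overlapped in both regions. The log2 change was -0.19 ± 0.08 dorsally (limma adjusted p = 0.0613, 95% interval -0.35 to -0.03) and -0.05 ± 0.08 medially (interval -0.22 to 0.11). With sex, read from Xist and Ddx3y, as a covariate the dorsal value was -0.26, with an adjusted p of 0.0121, and it also passed when any 1 of 5 libraries was left out (control dorsal 2 or 4, mutant dorsal 1, control medial 3 or 5). Over all alternatives this limma adjusted p ran from 0.0121 to 0.314. Atr, which encodes the kinase recruited by single-stranded DNA, changed by -0.06 dorsally (interval -0.19 to 0.07) and -0.08 medially (interval -0.22 to 0.05). The signs of Rad50 and Atr in both regions and of Atm medially flipped when libraries were rescaled by median ratios or to equal quantiles.

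All 5 genes of the BRCA complexes were higher in mutants in both regions. Brca1 encodes the ubiquitin ligase subunit that favours recombination over end joining. It had 37.7, 32.1, 42.0 and 34 TPM in mutant dorsal libraries, against 19.6, 22.0 and 25 TPM as the lowest, median and highest control dorsal library. Medially Brca1 had 38.4, 43.0, 51.0 and 45.7 TPM in mutants and 30.8, 30.8, 28.8, 32.8 and 29.9 TPM in controls. There was no overlap in either region, and the log2 change was 0.68 ± 0.08 dorsally (limma adjusted p = 3.59e-06) and 0.52 ± 0.08 medially (adjusted p = 0.000106). Brca2, which acts on the exposed single strand, was expressed at a lower level, with 10.1, 9.51, 10.8 and 7.92 TPM in mutant dorsal libraries and 6.12, 6.94 and 7.85 TPM as the lowest, median and highest control dorsal library. Medially Brca2 had 10.1, 12.4, 12 and 10.9 TPM in mutants and 8.23, 8.18, 8.25, 9.10 and 8.34 TPM in controls. The dorsal groups were separated by a narrow gap, between mutant 4 and the highest control. The log2 change of Brca2 was 0.41 ± 0.08 dorsally (limma adjusted p = 0.00106) and 0.39 ± 0.09 medially (adjusted p = 0.00182). Among the partners, Brip1, a helicase that binds BRCA1, rose by 0.63 dorsally and 0.53 medially. Palb2, the bridge between BRCA1 and BRCA2, rose by 0.44 and 0.38, and Bard1, the obligate partner of BRCA1, by 0.38 and 0.24. The medial call of Bard1 did not hold without control medial 5 (0.20) or without mutant medial 3 or 4 (0.23 each).

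The 5 recombination mediators Rad51b, Rad51c, Rad51d, Xrcc2 and Xrcc3, which are related to each other in sequence and assist strand exchange, held the gene that went the other way. Rad51b had 4.90, 3.38, 5.70 and 3.91 TPM in mutant dorsal libraries, against 2.00, 2.56 and 3.88 TPM as the lowest, median and highest control dorsal library. Medially Rad51b had 5.39, 5.89, 6.27 and 5.80 TPM in mutants and 3.65, 4.17, 3.52, 5.01 and 3.15 TPM in controls. The groups overlapped dorsally and not medially, and the log2 change was 0.56 ± 0.14 (limma adjusted p = 0.00375) and 0.49 ± 0.14 (adjusted p = 0.0104). With sex as a covariate the medial change of Rad51b was 0.36, with a limma adjusted p of 0.0761, the highest of its alternatives, which began at 0.00286. Rad51c rose by 0.51 in both regions, Xrcc2 by 0.28 dorsally and 0.40 medially, and Xrcc3 by 0.49 and 0.47. Xrcc3 did not pass without mutant dorsal 3 (0.39) dorsally, nor without control medial 6 (0.37), without mutant medial 3 (0.39) or with sex as a covariate (0.42) medially.

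Rad51d was lower in mutants in both regions. It had 8.01, 8.64, 7.73 and 7.72 TPM in mutant dorsal libraries, against 8.60, 9.74 and 10.9 TPM as the lowest, median and highest control dorsal library. Medially Rad51d had 7.77, 7.65, 8.41 and 7.74 TPM in mutants and 9.11, 10.6, 10.7, 8.50 and 9.24 TPM in controls. Dorsally mutant 2 lay just above the lowest control, and medially each mutant lay below each control. The log2 change was -0.24 ± 0.07 dorsally (limma adjusted p = 0.0116) and -0.25 ± 0.07 medially (adjusted p = 0.0106). The call depended on the scaling: with libraries rescaled by median ratios the change was -0.16 in each region, and with quantile normalization it was -0.12 dorsally and -0.09 medially, none past the threshold. With sex as a covariate it was -0.19 in each region, also not past it. Scaled without histone and mitochondrial genes, Rad51d was -0.18 and not past the threshold dorsally, and -0.19 and past it medially. The other 4 mediators passed as higher in both regions under these 3 scalings.

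The genes for pairing of strands showed some of the largest increases. Rad51ap1, which stimulates strand pairing, had 24.9, 22.3, 30.8 and 24.9 TPM in mutant dorsal libraries, against 11.8, 13.2 and 15.2 TPM as the lowest, median and highest control dorsal library. Medially Rad51ap1 had 25.1, 27.6, 34.2 and 29.8 TPM in mutants and 17.4, 17.1, 16.6, 19.1 and 15.6 TPM in controls. The groups were well apart in both regions, with log2 changes of 0.89 ± 0.09 (limma adjusted p = 9.54e-07) and 0.72 ± 0.10 (adjusted p = 1.84e-05). Rad54l and Rad54b, motor proteins that move along DNA during recombination, rose by 0.88 and 0.81 dorsally and by 0.65 and 0.60 medially. Rad54b shares 35.8% of its exon bases with Fsbp on the same strand, so reads of the pair could be assigned to either, and Fsbp itself rose by 0.40 dorsally and 0.38 medially.

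All 3 genes of the BLM complex, which resolves joined DNA molecules, were higher in both regions. Rmi2 showed the largest change among them, and the largest of the 34 genes medially. It had 7.35, 7.12, 9.44 and 8.43 TPM in mutant dorsal libraries, against 3.47, 4.80 and 5.35 TPM as the lowest, median and highest control dorsal library. Medially Rmi2 had 9.30, 9.88, 10.9 and 10.8 TPM in mutants and 5.97, 5.85, 5.15, 6.95 and 4.26 TPM in controls. The log2 change of Rmi2 was 0.69 ± 0.12 dorsally (limma adjusted p = 0.000215) and 0.77 ± 0.12 medially (adjusted p = 0.000109), with no overlap in either region. Blm, the helicase, rose by 0.57 and 0.52. Rmi1, the scaffold that RMI2 binds, rose by 0.19 and 0.20, the smallest of the increases that passed.

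The Fanconi core complex was uneven. Fanca, a large subunit of the complex, had 12.2, 11.3, 14.2 and 12.3 TPM in mutant dorsal libraries, against 4.85, 6.69 and 7.32 TPM as the lowest, median and highest control dorsal library. Medially Fanca had 12.8, 14.4, 15.4 and 13.4 TPM in mutants and 8.25, 9.62, 7.69, 9.97 and 8.39 TPM in controls. Every mutant was above every control, and the log2 change was 0.86 ± 0.10 dorsally (limma adjusted p = 3.4e-06) and 0.62 ± 0.10 medially (adjusted p = 0.000171). Fancb, an X-linked subunit, rose by 0.44 and 0.41, and by 0.46 and 0.44 with sex as a covariate. Fancc rose by 0.51 and 0.52, and by less without mutant 3. Its change was 0.32 dorsally without mutant dorsal 3 and 0.41 medially without mutant medial 3, and neither passed. With both of these libraries left out together Fancc passed in both regions. Fancm, the motor protein that anchors the complex on DNA, rose by 0.28 medially and did not pass dorsally, where its change was 0.15 (95% interval -0.01 to 0.31). The dorsal change of Fancm was 0.22 to 0.24 and passed under the 3 other scalings, and its medial change was 0.22 and did not pass with sex as a covariate.

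Fancg and Fancl did not pass in either region, and their levels varied widely among the libraries of a group. Fancl encodes the ubiquitin ligase of the core complex. It had 25, 22.9, 19.2 and 16.1 TPM in mutant dorsal libraries 1 to 4, against 12.4, 17.5 and 20.0 TPM as the lowest, median and highest control dorsal library. Medially Fancl had 31.2, 27.8, 21.2 and 17.9 TPM in mutants 1 to 4 and 23.5, 25.1, 21.9, 17.0 and 23.7 TPM in controls 2 to 6. Mutants 1 and 2 were thus above mutants 3 and 4 in both regions, and control 5 was the lowest control in both. The log2 change of Fancl was 0.31 dorsally (95% interval -0.02 to 0.64) and 0.12 medially (interval -0.23 to 0.46), and the medial value was -0.01 without mutant medial 1. Fancg, a scaffold subunit, had 7.75, 10.5, 12 and 15.3 TPM in mutant dorsal and 6.91, 11.2, 11.4 and 13.5 TPM in mutant medial libraries 1 to 4. The order of the 4 mutants was the same in both regions. Its controls ran from 7.09 to 11.7 TPM dorsally and from 5.05 to 9.29 TPM medially, and the changes were 0.29 dorsally (interval -0.11 to 0.69) and 0.39 medially (interval -0.03 to 0.81). Medially Fancg passed without mutant medial 1 (0.57) and with quantile normalization (0.57).

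**Figure D2:**
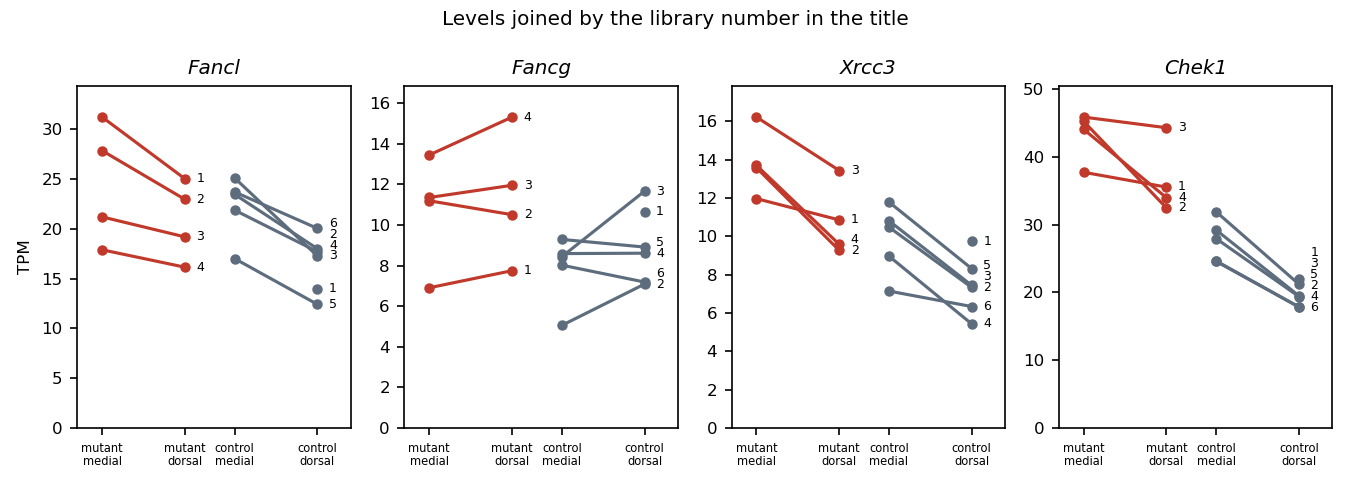
TPM (vertical axes, from 0) of Fancl, Fancg, Xrcc3 and Chek1 in each library, with medial and dorsal libraries of the same genotype and title number joined by a line; red is mutant, grey is control, and the number stands beside the dorsal point. Fancl and Fancg keep the order of the 4 mutants in both regions and the genotypes overlap, while for Chek1 the mutants lie above the controls.

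Both genes of the Fanconi ID2 complex, the target of the core complex, were higher. Fancd2 had 20.5, 18.2, 22.9 and 20.1 TPM in mutant dorsal libraries, against 9.22, 10.6 and 12.1 TPM as the lowest, median and highest control dorsal library. Medially Fancd2 had 20.5, 22.9, 24.0 and 23.4 TPM in mutants and 13.4, 14.4, 13.5, 15.5 and 13.5 TPM in controls. The gap between the genotypes was wide in both regions, and the log2 change was 0.89 ± 0.08 dorsally (limma adjusted p = 9.56e-08) and 0.65 ± 0.08 medially (adjusted p = 6.38e-06). Fanci, its partner, rose by 0.49 and 0.42. Msh6, which takes part in recognising mismatched bases, had 127, 109, 139.8 and 118 TPM in mutant dorsal libraries, against 92.2, 97.4 and 107 TPM as the lowest, median and highest control dorsal library. Medially Msh6 had 129, 136, 153 and 144 TPM in mutants and 112, 118, 108, 122 and 105 TPM in controls. No library of 1 genotype reached into the other, though the change was modest, 0.32 ± 0.06 dorsally (limma adjusted p = 0.000814) and 0.31 ± 0.07 medially (adjusted p = 0.00143).

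**Figure D3:**
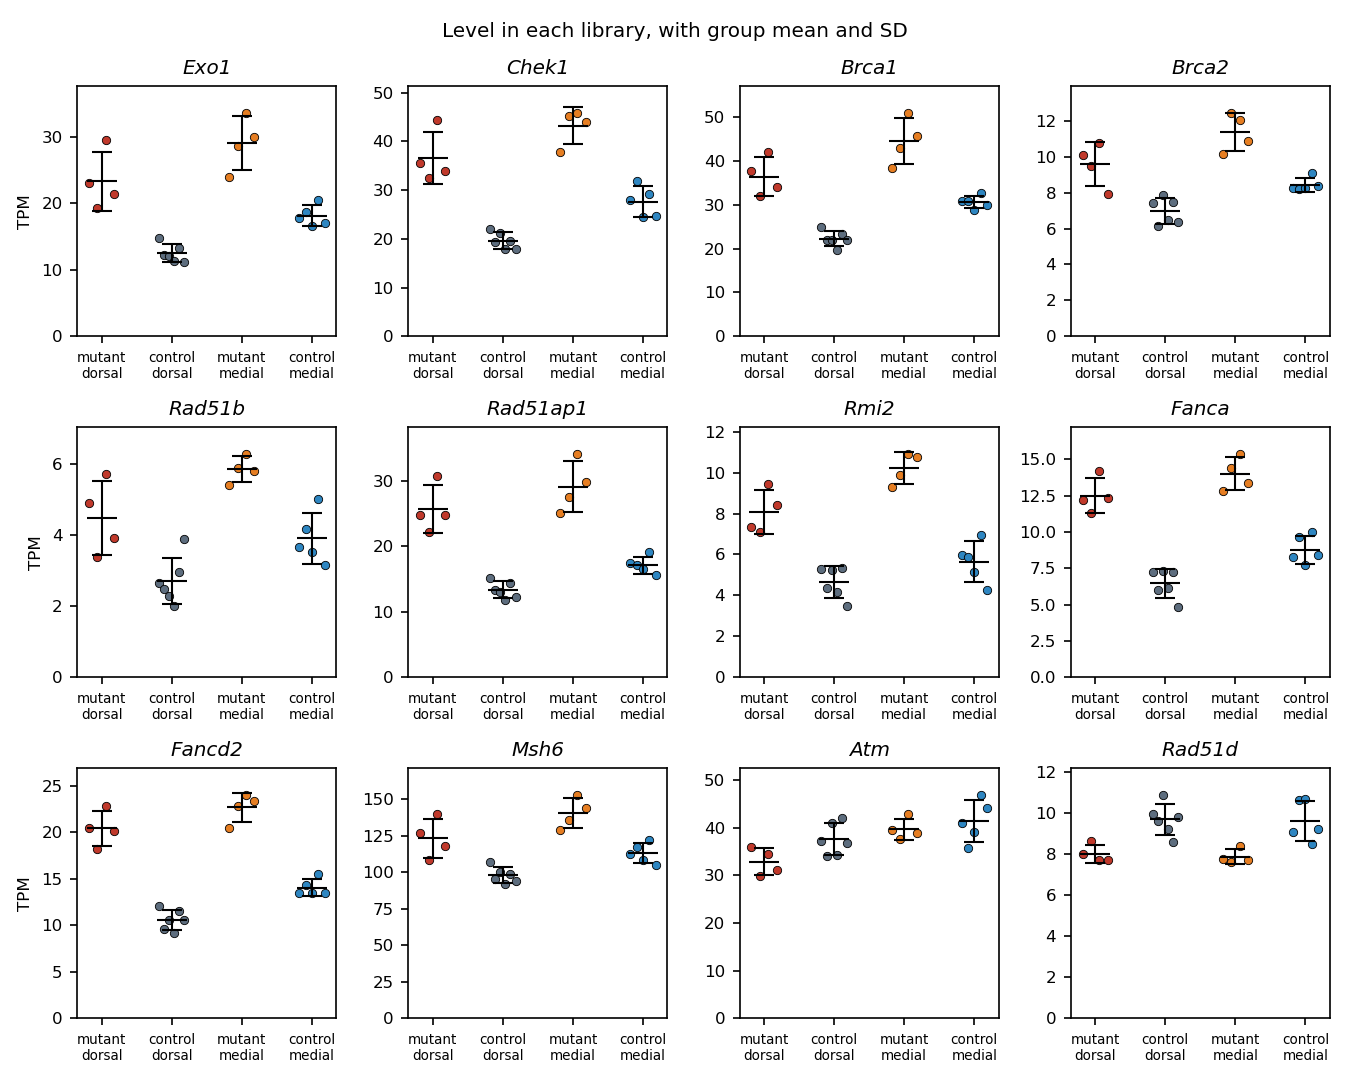
TPM in each library (points) for 12 of the genes, with the group mean and SD (bars); in each panel the groups are mutant dorsal, control dorsal, mutant medial and control medial, and each vertical axis starts at 0. In Exo1, Chek1, Brca1, Brca2, Rad51ap1, Rmi2, Fanca, Fancd2 and Msh6 the mutant points lie above the control points of their region, in Rad51b they overlap dorsally, in Atm they overlap in both regions, and in Rad51d most lie lower.

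Several of these genes overlap a neighbour on the opposite strand, and whether the counting used strand is not given in the sources used here. Lrrc41 covers 15.4% of the exon bases of Rad54l, Polg 16.0% of Fanci, Vrk2 13.7% of Fancl and Zfp276 10.5% of Fanca. In neither region did any of these 4 neighbours pass as higher. The dorsal log2 change was -0.19 for Lrrc41, which passed as lower, and -0.06 for Polg, -0.04 for Vrk2 and -0.18 for Zfp276, which did not pass. Smaller shares lay under more abundant neighbours on the opposite strand. Hnrnpk (mean 876 TPM) covers 5.02% of the exon bases of Rmi1, and Klc1 (190 TPM) 0.44% of Xrcc3. Fbxo11 (102 TPM) covers 0.78% of Msh6, and Ankrd49 (62.7 TPM) 2.6% of Mre11a. The part of any such overlap in the member levels was not tested.

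The mutant effect on these genes did not differ between the regions past the threshold. In the test of the difference, medial minus dorsal, 0 of the 34 genes passed (limma, adjusted), and 1 of all tested genes (0.00740%) passed. Unadjusted, 2 of the 34 had a limma p under 0.05. With a pseudocount of 0.5 that count was also 2, beside 441 of all 13520 tested genes. The differences ran from -0.26 (Chek2, 95% interval -0.59 to 0.08) to 0.14 (Atm, interval -0.10 to 0.37). Of the 27 genes higher in both regions, 21 had the larger estimate dorsally. With title number within a genotype as a replicate block 49 of all genes passed and none of the 34 did. In that limma fit 9 of the 34 and 1255 of all 13520 tested genes had an unadjusted p under 0.05.

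Within a genotype many of these genes were higher in the medial piece. In control cortex 20 were higher medially than dorsally and 0 lower (limma, adjusted), beside 17.6% of tested genes higher and 14.9% lower, with a median log2 change, medial over dorsal, of 0.25. Chek2 showed it most, at 26.0 ± 3.72 TPM in control medial and 16.2 ± 2.16 TPM in control dorsal libraries (SD, n = 5 and 6), a log2 change of 0.65 ± 0.10. Rad54l and Exo1 were next, both at 0.51. In mutant cortex 7 were higher medially and 0 lower, beside 8.03% and 10.8%, with a median of 0.19. These 7 were Rad50, Nbn, Atm, Chek2, Brca1, Brip1 and Blm. Medial and dorsal libraries of the same genotype and number deviated together, and with title number within a genotype as a replicate block the counts were 21 in mutants and 28 in controls (2490 and 3588 of all tested genes). The mutant count also ran from 1 (without mutant dorsal 2 or 4) to 17 (without mutant dorsal 3), and was 2 without mutant medial 3 and 4 without mutant medial 4. Over all tested genes the count higher medially in mutants moved likewise. It was 1085 in the main fit, 460 and 550 without mutant dorsal 2 or 4, and 1648 without mutant dorsal 3. Without mutant medial 3 or 4 it was 503 and 1055. When only the 2 mutant groups entered the limma fit the count of the 34 was 0, as was the count over all 13520 tested genes in either direction, while 16 of the 34 and 3643 of all genes had an unadjusted p under 0.05. S-phase genes moved the same way, with 10 of 44 higher medially in mutants and 38 of 44 in controls. Radial glia markers did as well, with 8 of 11 higher medially in mutants (median 0.48) and 9 of 11 in controls (median 0.53). Neuron markers went the opposite way, with 11 of 15 lower medially in each genotype, as did interneuron markers, with 9 of 10 lower in mutants and 8 of 10 in controls. The part of these markers in the regional difference was not tested.

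**Figure D4:**
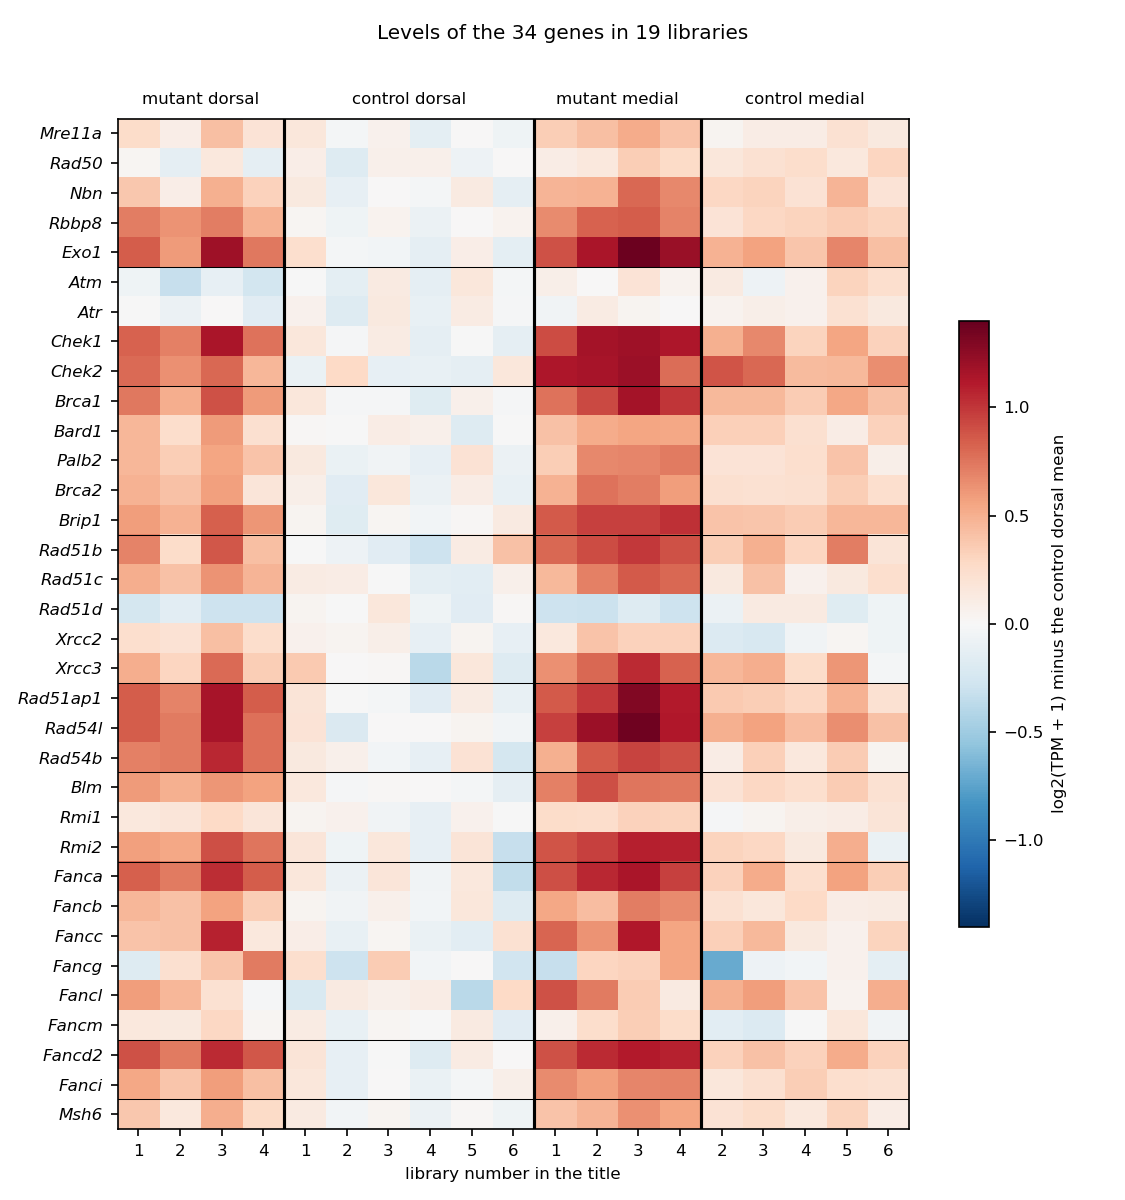
Each cell is log2(TPM + 1) of a gene (rows, grouped by role) in a library (columns, by title number) minus that gene's mean over the control dorsal libraries; red is higher, blue lower, on a scale ending at 1.4. The mutant columns are red for most rows, library 3 most of all, while the rows of Atm, Atr, Rad50 and Rad51d are pale or blue.

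Libraries of a group were not equal. Mutant 3 was the highest mutant library for 29 of the 34 genes dorsally and 25 medially, and the lowest for none. The summed level of the 34 genes was 738 to 900.4 TPM in mutant dorsal, 554 to 632 TPM in control dorsal, 853 to 998 TPM in mutant medial and 683 to 747 TPM in control medial libraries, so the mutants lay above the controls of their region without it too. Without both number 3 libraries, a choice made after seeing the data, 26 genes were higher dorsally and 27 medially, and Xrcc3 no longer passed in either.

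Set beside the 44 S-phase replication genes, whose log2 changes ran from 0.24 to 1.22 dorsally and 0.18 to 1.04 medially, the repair genes formed a graded series. Dorsally 7 lay above the replication median of 0.72 (Exo1, Chek1, Rad51ap1, Rad54l, Rad54b, Fanca and Fancd2), and 6 lay below the lowest replication gene (Rad50, Atm, Atr, Rad51d, Rmi1 and Fancm). Medially 5 lay above the median of 0.63 (Exo1, Rad51ap1, Rad54l, Rmi2 and Fancd2) and 5 below the lowest (Rad50, Atm, Atr, Rad51d and Fancl). Pcna, the sliding clamp of replication, rose by 0.87 dorsally and 0.81 medially, and Mki67, a proliferation marker, by 0.60 and 0.45.

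The other genes of recombination and the Fanconi pathway rose less uniformly. Of 50 tested, 22 were higher and 5 lower dorsally, with a median of 0.15, and 23 higher and 5 lower medially, with a median of 0.18. Among all tested genes 9.93% were higher and 27.6% lower dorsally, and 9.44% and 30.2% medially. By smallest adjusted p in the dorsal comparison the leaders were Usp1, which removes ubiquitin from FANCD2 (0.58 ± 0.05), Rpa2, a subunit of the single-strand binding protein (0.67 ± 0.06), Rad21 of cohesin (0.36 ± 0.04) and Gen1, a junction-cutting nuclease (0.65 ± 0.08). The genes lower dorsally were Wdr48, Rad52, Mus81, Tonsl and Faap100, between -0.26 (Rad52) and -0.10 (Tonsl). The dorsal median over all tested genes was itself -0.10 as deposited, and -0.02 with median ratios. Of 22 partners of the ATR and ATM checkpoint, 11 were higher and 1 lower in each region, led by H2afx (0.74 ± 0.05 dorsally), Timeless (0.69 ± 0.06), Clspn (1.02 ± 0.10) and Tipin (0.68 ± 0.07). The last 3 work at the replication fork.

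Lists of other repair routes had median changes nearer to 0. Among 9 genes of non-homologous end joining, which joins ends without a template, Xrcc6 was higher (0.18 in both regions), Xrcc4 was lower dorsally (-0.26), and the median was -0.11 dorsally and -0.09 medially. Of 23 genes for base and nucleotide excision repair, 4 were higher and 5 lower dorsally, 4 and 6 medially, with medians of -0.03 and -0.06. Over all tested genes, as given above, 9.93% were higher and 27.6% lower dorsally, and 9.44% and 30.2% medially. Ung, which removes uracil from DNA, stood out at 0.78 ± 0.09 dorsally and 0.71 ± 0.09 medially, and Xpc, a damage sensor, was lower at -0.35 ± 0.05 and -0.48 ± 0.05. Of 6 other mismatch repair genes, 2 were higher dorsally and 1 medially, with medians of 0.09 and 0.08. These small values depend on the scaling: the median over all tested genes was -0.10 dorsally and -0.11 medially as scaled by the authors, and -0.02 in each region with median ratios.

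**Figure D5:**
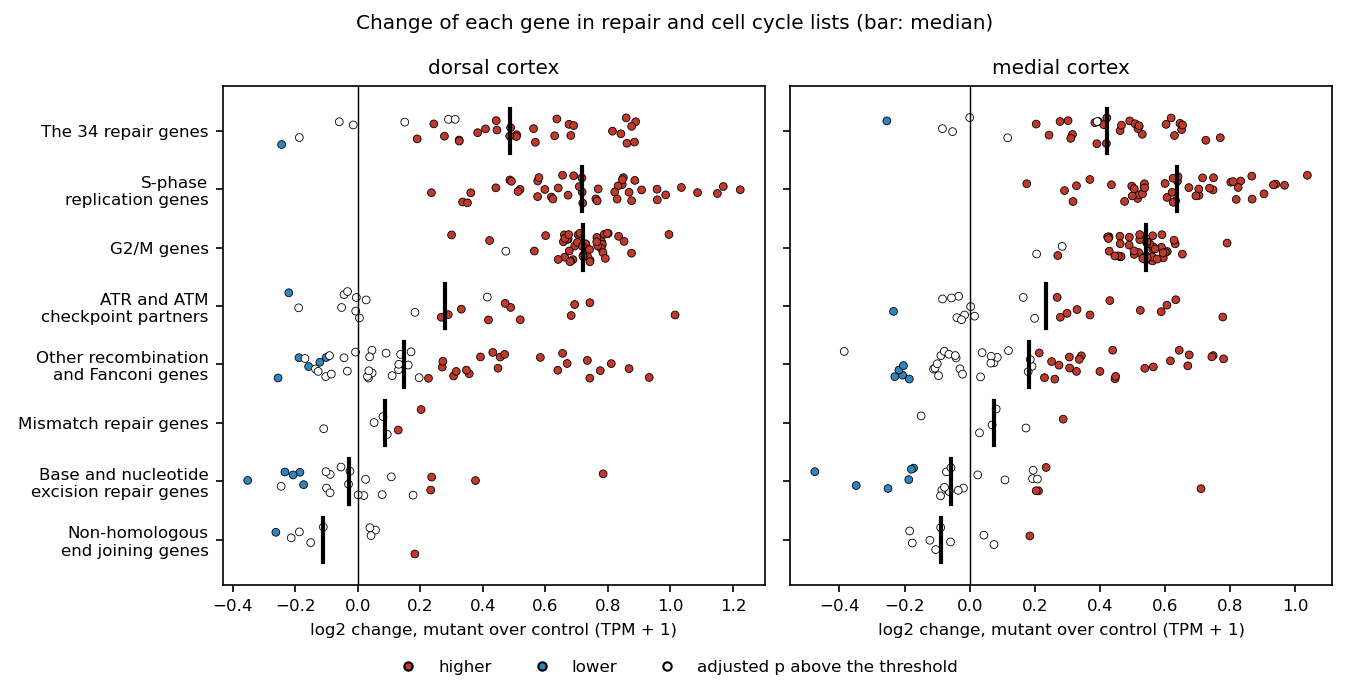
Log2 change of TPM + 1, mutant over control, of each gene (points) in the 34 repair genes and in 7 lists of cell cycle and repair genes, dorsal left and medial right; the black bar is the list median, red points passed as higher, blue as lower, white did not pass. The medians run from 0.72 for replication and G2/M genes and 0.49 for the 34 genes to -0.11 for end joining dorsally.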

How the data were processed

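The authors deposited TPM values per gene and library, on genome build mm10 per the submitters' processing notes. The aligner, the quantifier, the annotation and strand handling were not given in the sources used here. RNA was extracted from dissected cortex and libraries were made with a stranded total RNA kit, per the labels' protocols. Libraries were grouped by title. The 34 genes, the gene lists and the tests were chosen with earlier results of these data known.

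The 13520 genes that reached 1 TPM in 4 or more libraries were fitted on log2(TPM + 1), with 1 mean per group over all 19 libraries, in limma 3.58.1 (R 4.3.3) with trended, robust moderation, and p-values adjusted by Benjamini and Hochberg over all genes tested. The procedure was tested on simulated data.

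All 34 genes are named. Values per library are given for Brca1, Brca2, Fancd2, Chek1 and Atm, for the member of each role with the largest change past the threshold, and for members lower in mutants; Fancl and Fancg were added after their values were seen. Other genes are named by smallest adjusted p, up to 4 per list, and Smo, Gli1, Ptch1, Cdk6, Pcna and Mki67 always; some genes that these rules name are not reported here; Smo rose by 0.61 dorsally and 0.47 medially, Ptch1 by 3.18 and 3.45, and Cdk6 by 1.51 and 2.25. The genes lower among other recombination genes, Xrcc4 and the overlapping neighbours were named after their values were seen.

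Pairing was checked on deviations from group means. Within a genotype, dorsal and medial libraries that share a title number correlated (r from 0.549 to 0.795 in 9 pairs), while mutants and controls of the same number did not (r from -0.436 to 0.138 in 7 pairs). The main fit had no replicate block and treated all libraries as independent. Same-numbered libraries of a genotype were paired only in the alternative with title number within a genotype as a block. No label says what the number marks, be it an embryo, a litter or a preparation. Alternatives were other pseudocounts (0.1 and 0.5), filters, scalings, moderation, blocks, sex (libraries of 3 control numbers read as female by Xist and Ddx3y) and leaving out each library. Exon overlaps are from GENCODE on GRCm38. Plots were drawn with matplotlib 3.10.9.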

Additional observations from a re-analysis of the deposited data

Results flagged for a closer look

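In 4 of 136 sets of 4 to 6 libraries, 1 library stood apart from the rest of its group by Dixon's test, where chance flags about 1 in 20. Palb2 was 6.83 TPM in mutant medial 1, and the other mutant medial libraries lay between 8.86 and 9.20 TPM. Brca2 was 9.10 TPM in control medial 5, where the other controls reached at most 8.34 TPM. Rad51d was 8.41 TPM in mutant medial 3 and at most 7.77 TPM in the other mutants, and Xrcc2 was 24.9 TPM in mutant dorsal 3 and at most 21.9 TPM in the others.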

How the results depend on the processing

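Over 31 alternatives the number of the 34 genes higher in mutants ran from 25 to 28 dorsally and from 25 to 29 medially, with leaving out 1 library giving 25 to 27 and 25 to 29. Of the 28 genes called dorsally, 25 were called in every alternative that tested them (exceptions Rad51d, Xrcc3 and Fancc), as were 23 of the 29 called medially (exceptions Bard1, Rad51b, Rad51d, Xrcc3, Fancc and Fancm). The number lower was 0 dorsally with median-ratio rescaling, quantile normalization or without histone and mitochondrial genes, 0 medially with median-ratio rescaling, quantile normalization or sex as a covariate, and 1 to 2 dorsally with 1 library left out, Atm being the added gene. The count higher medially against dorsally in mutants was 2 with no filter, 11 with quantile normalization, 0 with only the groups compared, 21 with title number within a genotype and 12 with title number alone as a replicate block, and 1 to 17 with 1 library left out. Over all genes the matching counts were 845, 1300, 0, 2490 and 1492, and 460 to 1648 with 1 library left out. The cause was not tested. Neither replicate block moved the counts of the 34 genes in mutant against control; over all genes the block within a genotype gave 1343 higher and 3636 lower dorsally and 1265 and 4129 medially. Quantile normalization gave 1959 of all genes higher and 2173 lower dorsally, and 2164 and 2275 medially. Without histone and mitochondrial genes the split was 1805 and 2199 dorsally and 1713 and 2751 medially. The medial median of all genes was -0.01 under quantile normalization.

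Signs turned only for genes that were not called. With median-ratio rescaling, quantile normalization and histone-free rescaling Rad50 was 0.0709, 0.0749 and 0.0546 dorsally and 0.0978, 0.115 and 0.0681 medially, Atr was 0.0254, 0.0330 and 0.00895 dorsally, and Atm was 0.0466, 0.0396 and 0.0163 medially. Medially Atr was 0.0129 and 0.0417 with the median-ratio and quantile scalings. With 1 library left out Rad50 ran from -0.0709 to 0.0207 dorsally and from -0.0426 to 0.0383 medially, and Fancl medially from -0.00558 to 0.251. Depth is unknown, so counting error cannot be set against the spread between libraries.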
